A study of Mus musculus with 24 samples.

Results

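Deep brain neurons that carry Slc17a6, the gene for the vesicular glutamate transporter VGLUT2, but little or no Tcf7l2, a transcription factor of thalamic neurons, were examined in Pdgfb ret/ret mice and their Pdgfb ret/wt controls. The members were chosen nucleus by nucleus from UMI counts, in which each unique molecular identifier (UMI) stands for 1 captured transcript. A nucleus had to come from a deep brain library and hold more than 500 and fewer than 7000 genes, less than 20% mitochondrial UMIs and at least 3000 UMIs. It had to hold at least 2 UMIs of Slc17a6, at most 1 of Tcf7l2, at most 1 of the GABA-synthesis genes Gad1 and Gad2 together and at most 1 of Slc17a7, the gene for the cortical transporter VGLUT1. It could hold no UMI of Slc6a3, Tph2 or Slc5a7 (dopaminergic, serotonergic and cholinergic neurons) and none of Csf1r (microglia), and at most 2 of the myelin genes Mog, Mag and Mobp together. The rule kept 7691 nuclei, called Tcf7l2-low Slc17a6 neurons or members, which were 6.15% of the 124958 deep brain nuclei within the limits on genes and mitochondrial UMIs. The whole series, cortex included, held 204925 such nuclei.

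VGLUT2 fills synaptic vesicles with glutamate, and in the adult brain it is the main vesicular glutamate transporter of the neurons below the cerebral cortex. Outside the thalamus these neurons are spread over many small nuclei, among them the paraventricular, ventromedial and mammillary nuclei of the hypothalamus, the subthalamic nucleus, the colliculi and the nuclei of the pons. They are told apart mainly by the transcription factors that set their region of origin during development, such as Sim1 and Otp in the hypothalamus or Lmx1a and Lmx1b near the mammillary and subthalamic regions. Many of them release a neuropeptide beside glutamate.

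Nuclei came from 6 Pdgfb ret/ret mice (mutant) and 6 Pdgfb ret/wt mice (control) of strain B6.Pdgfbtm3Cbet, with 1 deep brain and 1 cortex library per mouse. The ret allele encodes PDGF-B without its retention motif, and controls carried 1 copy of it beside a wild-type copy, so that no mouse without the allele was included. The age given for mice 1 to 3 in both groups was 5 months plus 0 to 18 days, and that of mice 4 to 6 was 4 months plus 7 to 24 days, whereas the treatment protocol gives 5 months for all mice. All were female apart from control 6, and the deep brain piece, which the study describes as prone to calcification, held pallidum, thalamus and hypothalamus, midbrain and pons. The study used these mice as a model of calcification of small brain vessels, and the comparison here asks how this class of neurons differs between the genotypes.

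The 12 deep brain libraries held 64736053 to 96459036 UMIs each, and total UMIs did not separate the genotypes (two-sided exact permutation test, p = 0.846, n = 6 and 6). The summed counts of the members held 4003753 to 8102834 UMIs per library, and the median member held 9053 UMIs and 3939 genes. Each library gave 357 to 859 members, and any pair of libraries shared 87 to 196 nucleus barcodes, at most 1.81% of them. Only 30 member barcodes occurred in more than 1 library. The doublet caller Scrublet marked 1.08% to 3.28% of the members of a library, and these nuclei were kept. Pdgfb over all deep brain nuclei was at 4.64 ± 0.989 CPM (counts of the gene per 1000000 UMIs) in mutants and 6.14 ± 1.41 CPM in controls (SD, n = 6 each; exact permutation p = 0.0714), a level that does not check the genotype, because the allele removes the far end of the coding sequence and the library reads the 5′ end of transcripts.

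The members had the transcripts of neurons. With each nucleus thinned to 3000 UMIs, Snap25, a protein of vesicle fusion, was found in 81.8%, the vesicle calcium sensor Syt1 in 94.0% and the neuronal non-coding RNA Meg3 in 99.8% of members, as means over the 12 libraries. In thinned oligodendrocyte nuclei the shares were 25.9%, 40.6% and 41.0%, and without thinning those of the members were 97.1%, 98.3% and 99.8%. Slc32a1, the vesicular GABA transporter, which the rule did not use, was found in 5.44% of members, and in 2.25% once each nucleus was thinned to 3000 UMIs. The thinned share in oligodendrocyte nuclei was 4.00%. In Slc17a6 nuclei that met the other conditions with at least 2 UMIs of Tcf7l2 it was 1.24%. Whether the share in members is background was not tested.

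Counts lay close to the limits of the rule in a part of the members, which is given here as a description. Of the 7691 members, 1815 (23.6%) held exactly 2 UMIs of Slc17a6, 1520 held 3 and 4356 (56.6%) held 4 or more, while 2373 nuclei just outside met every other condition with a single UMI. Tcf7l2 had no UMI in 6593 members and 1 UMI in 1098, and 873 nuclei just outside held 2. In all, 21594 nuclei held at least 2 UMIs of Slc17a6 with sufficient depth. Tcf7l2 alone or with other genes kept out 10145 of them, Slc17a7 kept out 2602, Gad1 and Gad2 2415, myelin genes 1292, the monoaminergic and cholinergic genes 890 and Csf1r 721. A further 233 deep brain nuclei met the conditions on genes but held fewer than 3000 UMIs. The same conditions found 398 nuclei in the 12 cortex libraries, 0.342% to 1.63% of the nuclei with at least 3000 UMIs, against 5.81% to 11.5% in the deep brain.

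Mutant and control libraries held Tcf7l2-low Slc17a6 neurons in overlapping shares. They made up 6.86%, 6.24%, 6.68%, 4.59%, 6.64% and 6.33% of the deep brain nuclei of mutants 1 to 6. In controls 1 to 6 the shares were 5.07%, 7.87%, 7.17%, 4.63%, 5.87% and 5.69%. The groups overlapped, although the control shares of 7.87% and 7.17% lay above the highest mutant share of 6.86%. Mutant 4 and control 4 were the lowest of each. The mean was 6.22% ± 0.831 in mutants and 6.05% ± 1.24 in controls (SD, n = 6 each), a difference of 0.176 percentage points with a 95% permutation interval from -1.14 to 1.50 (two-sided exact permutation test, p = 0.779). The sign of this difference turned without control 1 (-0.0203 points) and without control 4 (-0.108 points). The depth of the members overlapped between the genotypes as well, with a median of 7985 to 10440 UMIs per nucleus in mutant libraries and 8197.5 to 10845 in control libraries (exact permutation p = 0.494).

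**Figure D1:**
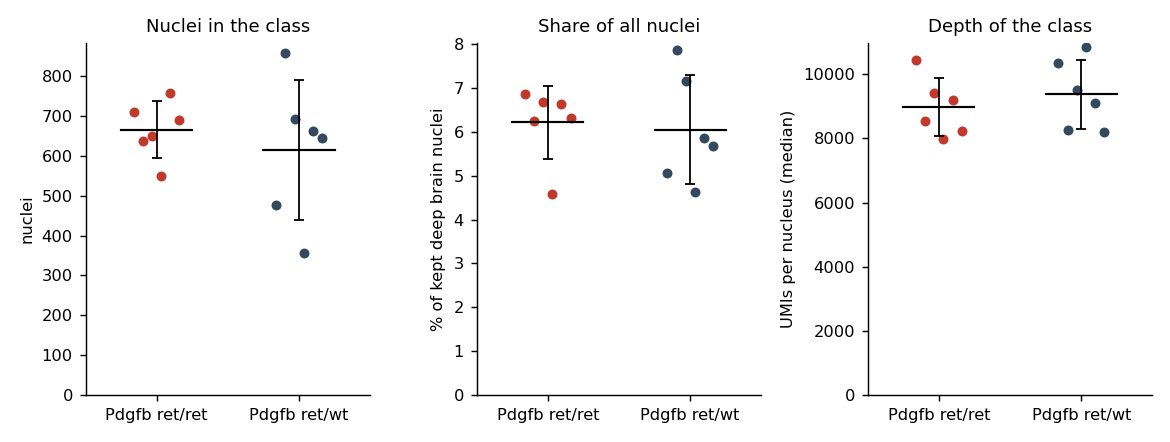
Each point is 1 deep brain library, 6 of Pdgfb ret/ret and 6 of Pdgfb ret/wt mice, for the number of Tcf7l2-low Slc17a6 neurons, their share of the kept deep brain nuclei in percent and their median UMIs per nucleus; lines show the mean and bars the SD. The shares of both genotypes overlap, with means of 6.22% and 6.05%, and the lowest values are 4.59% in a mutant and 4.63% in a control library.

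Clustering of the members on their 2000 most variable genes gave 19 clusters of 46 to 1563 nuclei. The genes that lead a cluster made it, so their levels are given as a description and without a test. Names were given only where markers of a list carried them, and the other clusters are called by their number and leading genes. The clusters 1, 2 and 3 held 1563, 1288 and 1130 nuclei and were the largest. Cluster 1 was led by genes with modest differences, among them Syt2, a calcium sensor of fast synapses, which was at 271 CPM against 107 CPM in the other members, and Npas1, at 30.6 CPM against 8.03 CPM. Cluster 3 was led by Cartpt, a peptide precursor, at 71.9 CPM against 16.4 CPM, beside 6 mitochondrial genes among its 10 leading genes, and its median depth was 7350 UMIs.

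**Figure D2:**
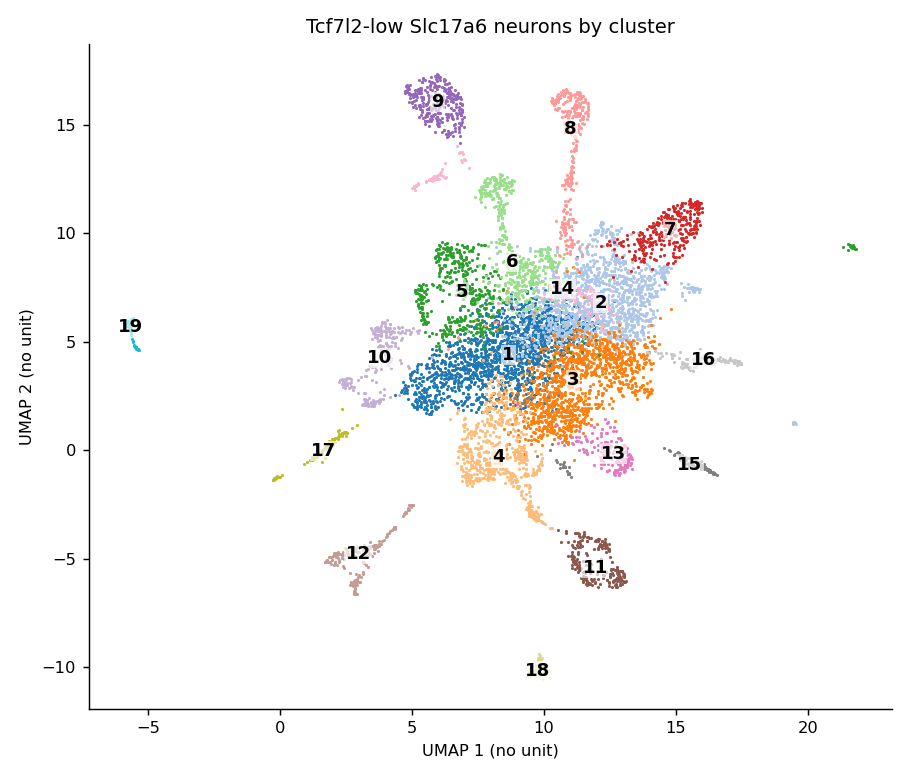
Each point is 1 of the 7691 Tcf7l2-low Slc17a6 neurons, placed by UMAP (2 axes without a unit) and coloured by cluster, with the cluster number at its centre. The clusters 1, 2 and 3 fill the middle, and smaller clusters of 46 to 569 nuclei lie around them.

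The clusters 2, 7, 9 and 14 carried genes of hypothalamic neurons, some of which were also found elsewhere. Cluster 2 was led by the peptide genes Hcrt (orexin, 217 CPM against 7.06 CPM in the other members), Oxt (oxytocin, 170 CPM against 16.6 CPM), Trh (thyrotropin-releasing hormone, 173 CPM against 17.6 CPM) and Avp (vasopressin, 188 CPM against 22.2 CPM). Few of its nuclei held these transcripts. Hcrt was found in 4.27% of them and 2.48% of the other members, and Oxt in 4.35% and 4.61%. Trh was found in 12.4% and 2.14%, and Avp in 6.91% and 4.36%. It held 41.2% of the Sim1 UMIs and 57.7% of the Otp UMIs of all members, 2 factors needed for the paraventricular nucleus, and all 6 paraventricular markers were over 2-fold higher in it. Cluster 1 held a further 30.2% of the Otp UMIs and had Sim1 at 36.5 CPM, and cluster 3 held 26.6% of the Avp and 25.2% of the Oxt UMIs. In the small astrocyte-led cluster 17, Hcrt was at 297 CPM and Avp at 228 CPM. Orexin neurons belong to the lateral hypothalamus, so cluster 2 is called by its leading genes. Calcr, the calcitonin receptor, and Gabrq, a rare GABA receptor subunit, also led it, at 56.0 CPM against 6.35 CPM and 65.7 CPM against 14.0 CPM.

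Cluster 7 (321 nuclei) held 92.9% of the UMIs of Nr5a1, the factor SF-1 that marks the ventromedial hypothalamus, which was found in 34.0% of its nuclei and 0.149% of the others. Only 2 of the 3 ventromedial markers, Nr5a1 and Fezf1, were over 2-fold higher, and the cluster has no name. It also held 53.4% of the Sox14 UMIs, and Esr1, the oestrogen receptor alpha, was at 97.0 CPM there. Cluster 9 (292 nuclei) was led by the motor protein gene Myo5b and had the largest shares of thinned nuclei positive for Sim1 (37.7%), Nkx2-1 (27.4%) and Cartpt (28.1%), and it held 49.8% of the UMIs of Foxb1, a factor of the mammillary body. Cluster 14 (144 nuclei) joined Nkx2-1 (41.7% of its nuclei) with Tac2, the neurokinin B precursor, at 147 CPM against 10.5 CPM.

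Lmx1a and Lmx1b, factors of the floor plate and of the supramammillary and subthalamic neurons, were held mainly by cluster 6 (436 nuclei), with 46.7% and 47.5% of their UMIs. Lmx1a was found in 66.1% of its nuclei and Lmx1b in 41.5%. In all, 3 of 6 markers were over 2-fold higher and led the cluster, which is called subthalamic or supramammillary-like. Cluster 5 (461 nuclei), led by C1ql1, a secreted synaptic protein, at 143 CPM against 8.91 CPM, and by Nr4a2, held a further 26.8% of the Lmx1a UMIs and 45.6% of the UMIs of Foxa1 but only 2 of the 6 markers were over 2-fold higher there. Cluster 13 (165 nuclei) had among its leading genes Gli3 (466 CPM against 15.5 CPM), a factor of the hedgehog pathway, and Tfap2d, a factor of the midbrain roof.

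Several other clusters were led by genes that also occurred, at lower levels, in the rest of the members. Cluster 4 (569 nuclei) was led by Hgf, hepatocyte growth factor, at 123 CPM against 8.50 CPM, by Sox6 and by Tfap2b, a factor of the dorsal midbrain, of whose UMIs it held 46.6%. Lef1, an effector of Wnt signalling that is also high in thalamus, was found in 75.6% of its nuclei and in 87.2% of those of cluster 11. Cluster 11 (211 nuclei) carried Rorb (1343 CPM against 102 CPM) and Robo3, a receptor for axon crossing at the midline, at 120 CPM against 4.67 CPM. Cluster 10 (217 nuclei) was led by Maf, at 157 CPM against 11.8 CPM, and cluster 12 (172 nuclei) by Corin, the protease that activates natriuretic peptides, at 381 CPM against 1.73 CPM. In cluster 12 the prohormone convertase Pcsk1 was found in 86.0% of thinned nuclei, against 25.9% over all members.

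Some small clusters carried genes that go against the rule. Cluster 8 (295 nuclei) was led by genes that included Pdzrn3, Mlip and Mef2c, which are found in cortical projection neurons, and all 6 markers of telencephalic glutamatergic neurons were over 2-fold higher, so it is called telencephalic glutamatergic-like. It held 53.4% of the Neurod6 UMIs of all members, although its nuclei could hold at most 1 UMI of Slc17a7. Cluster 16 (105 nuclei) was thalamic-like, led by Plekhg1, Synpo2 and Prkcd. Cluster 17 (97 nuclei) was led by astrocyte genes such as Slc1a3 and Gja1, and 65 of its nuclei were called doublets. Cluster 19 (46 nuclei) was led by Pdgfra and Vcan, genes of oligodendrocyte precursors, and 26 of its nuclei were called doublets. In cluster 15 (118 nuclei) vascular genes led but were found in few nuclei (Flt1 in 13.6%), while Scml2 and Npnt were found in 62.7% and 72.0%. Cluster 18 (61 nuclei), led by Fam107b and Spp1, had 3 of 4 markers of cerebellar granule neurons and 4 of 6 Hox genes over 2-fold higher and has no name.

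**Figure D3:**
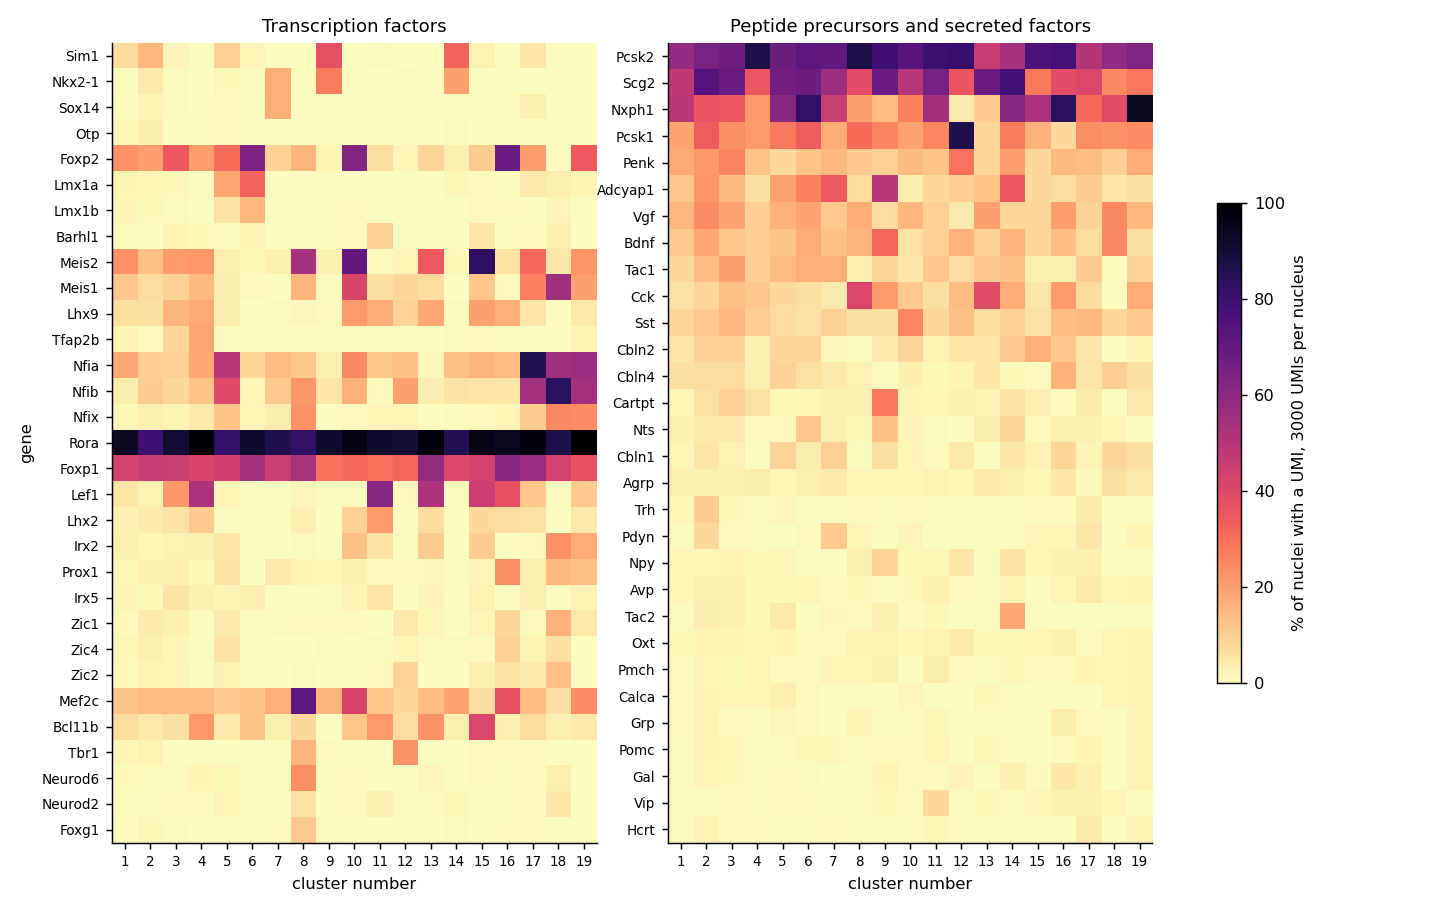
Colour gives the percent of nuclei of each cluster (columns) with at least 1 UMI of a transcription factor (left) or of a peptide precursor or secreted factor (right), after each nucleus was thinned to 3000 UMIs. Rora was found in most nuclei of every cluster, whereas Lmx1a (32.8% of cluster 6) and Sim1 (37.7% of cluster 9) were concentrated in a few, and Pcsk1 was widespread but highest in cluster 12 (86.0%).

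Over all members, Rora, a nuclear receptor, was found in 89.5% of thinned nuclei, Foxp2 in 24.7%, Meis2 in 18.6%, Mef2c in 17.0%, Lef1 in 13.0% and Bcl11b in 8.64%. In oligodendrocyte nuclei the shares were 50.3%, 4.65%, 10.7%, 7.49%, 1.47% and 1.77%. For Foxp1 (44.1%), Nfia (16.4%), Nfib (11.5%) and Meis1 (9.34%) the oligodendrocyte share was higher, at 63.2%, 79.6%, 49.5% and 37.1%, and gives no background level for these genes. By cluster Nfia was found in 49.2% of cluster 5 and 2.74% of cluster 9, Nfib in 40.1% of cluster 5 and 1.83% of cluster 6, and Meis1 in 41.5% of cluster 10 and 0.685% of cluster 9, while Foxp1 was found in 29.5% to 61.0% of every cluster. Without thinning, at a median of 9053 UMIs against 3683 UMIs in oligodendrocytes, the members' shares of Rora, Foxp2, Foxp1 and Nfia were 97.2%, 33.4%, 75.3% and 29.3%. The hypothalamic factors Sim1 (7.40% of thinned members), Nkx2-1 (3.24%) and Otp (1.15%) were each found in at most 0.193% of thinned oligodendrocyte nuclei.

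Genes of the peptide pathway were widespread, and single peptides were high in small groups of nuclei. The convertase Pcsk2 was found in 68.4% of thinned members, the granule protein Scg2 in 57.8% and Pcsk1 in 25.9%, against 13.8%, 11.3% and 1.96% of oligodendrocyte nuclei. Nxph1, a ligand of neurexins, was found in 40.9% against 8.13%, Adcyap1, the PACAP precursor, in 16.5% against 1.44%, Vgf in 16.3% against 4.68% and Bdnf, a neurotrophin, in 13.9% against 1.76%. The unthinned shares of these 7 genes in members were 89.0%, 82.1%, 48.8%, 54.0%, 32.8%, 31.5% and 29.7%, in the same order. Penk, the enkephalin precursor (17.3% against 16.2%), and Cck (11.4% against 10.8%) were found in oligodendrocyte nuclei in nearly the same share. Taken over all members, these shares alone do not tell either gene from background. By cluster, Cck was found in 41.0% of cluster 8 and 38.8% of cluster 13 but 4.67% of cluster 7, and Penk in 29.1% of cluster 12 but 7.63% of cluster 15. Tac1, the substance P precursor, was found in 11.7% against 6.09%.

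For peptides with such a background, nuclei with at least 10 UMIs of the gene were counted. Vasopressin passed this limit in 20 members, of which 17 were in cluster 2, with up to 837 UMIs in a nucleus, and these held 89.2% of the Avp UMIs of all members. Oxytocin passed it in 11 members (up to 668 UMIs) and orexin in 18 (up to 385 UMIs, 93.2% of the Hcrt UMIs). Thyrotropin-releasing hormone passed it in 89 members, 65 of them in cluster 2. Penk passed it in 187 members, Tac1 in 110, Sst, the somatostatin precursor, in 92, Tac2 in 32 and Nts, Cartpt and Adcyap1 in 26 each. Among 7760 oligodendrocyte nuclei no more than 3 passed for any of these 11 genes. These nuclei were not thinned and had a median of 3683 UMIs against 9053 in members, so the limit was harder to pass for them. Vasopressin-rich nuclei came from 11 of the 12 libraries, 10 nuclei of each genotype, and orexin-rich nuclei from 8 libraries, 10 from mutants and 8 from controls.

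Set beside 7014 Slc17a6 nuclei of the same libraries that held at least 2 UMIs of Tcf7l2 and met the other conditions (thalamic type), the members differed in many genes. The rule split the groups, so this is a description. CPM in the comparison with the thalamic type were scaled with factors fitted on both classes together. The members' levels therefore differ somewhat from those in the genotype comparison. Over all 15700 genes measured in both, 12.9% were higher and 14.8% lower in the members in all 12 libraries. Slc17a6 itself was at 431 ± 17.6 CPM in members and 468 ± 31.1 CPM in the thalamic type (SD, n = 12), lower in all 12, and Tcf7l2 was at 13.6 ± 3.15 CPM against 628 ± 89.3 CPM. Beside Tcf7l2, whose level the rule set, the other 6 thalamic markers were lower in every library, with log2 ratios from -0.67 for Gbx2 to -4.23 for Plekhg1. Of 9 hypothalamic factors 8 were higher in every library, led by Sim1 at 37.8 ± 11.7 CPM against 1.10 ± 0.755 CPM, and of 6 subthalamic and mammillary factors 4 were higher and 1 lower.

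Of 33 peptide and secreted genes 11 were higher and 3 lower than in the thalamic type in all 12 libraries. Penk was at 107 ± 28.2 CPM against 41.3 ± 13.4 CPM, Adcyap1 at 69.0 ± 9.95 CPM against 25.1 ± 4.97 CPM and Pcsk1 at 126 ± 24.6 CPM against 61.5 ± 12.1 CPM. Of 55 receptors for modulators 19 were higher, among them Esr1 (34.4 ± 6.94 CPM against 17.2 ± 3.38 CPM), Lepr, the leptin receptor (16.1 ± 2.36 CPM against 9.59 ± 2.42 CPM), and Calcr (13.6 ± 2.92 CPM against 1.64 ± 0.973 CPM), and 5 were lower. Nos1, the neuronal nitric oxide synthase, was at 30.4 ± 6.29 CPM against 12.4 ± 4.48 CPM.

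Inhibitory receptors and channels also differed by subunit. Gabrq (21.1 ± 3.85 CPM against 5.27 ± 1.70 CPM), Gabra2 and the glycine receptor gene Glra3 were higher in the members in every library. The extrasynaptic GABA receptor subunits Gabrd (5.99 ± 1.49 CPM against 62.8 ± 13.6 CPM) and Gabra4 (82.6 ± 14.8 CPM against 552 ± 174 CPM) were lower in every library. Among T-type calcium channels, Cacna1g, the main one of thalamic relay neurons, was lower at 76.3 ± 7.90 CPM against 169 ± 29.3 CPM, while Cacna1h (31.8 ± 3.57 CPM against 15.6 ± 4.46 CPM) and Cacna1i (53.0 ± 5.92 CPM against 30.0 ± 5.28 CPM) were higher. The fast potassium channel Kcnc2 was at 504 ± 46.2 CPM against 1720 ± 411 CPM. Of 39 channel genes 18 were lower and 7 higher in every library, and of 25 glutamate receptor genes 13 were lower and 3 higher.

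None of the 19 clusters passed an adjusted p of 0.05 (two-sided exact permutation test with 924 permutations, Benjamini-Hochberg adjustment, 0% called), and 1 (5.26%) had an unadjusted p under 0.05. That was cluster 15, the one led by Flt1 and Scml2, at 1.17% ± 0.606 of members in mutants and 1.97% ± 0.441 in controls (SD, n = 6 each; exact permutation p = 0.0325, adjusted p = 0.295). The 5 vascular markers tested in the members all had a negative log2 fold change, with a median of -1.20. Flt1 and Vtn had an unadjusted p under 0.05, and the sum of the 5 ran from 3.66 to 15.7 CPM in mutants and from 4.14 to 24.8 CPM in controls. Cluster 2, led by hypothalamic peptide genes found in few of its nuclei, was at 18.4% ± 1.66 in mutants and 15.4% ± 3.26 in controls. The difference was 2.98 points with a 95% permutation interval from -0.358 to 6.32 (exact permutation p = 0.0758, adjusted p = 0.295). The subthalamic or supramammillary-like cluster 6 was at 5.06% ± 1.08 and 6.56% ± 1.55 (exact permutation p = 0.0779), and the Nr5a1 cluster 7 at 4.75% ± 1.27 and 3.54% ± 0.906 (exact permutation p = 0.0823). Cluster 7 was higher in the mutant of all 6 pairs of the same replicate number, with p = 0.03125 in the exact sign-flip permutation test, the smallest that 6 pairs allow, and an adjusted p of 0.297.

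The telencephalic glutamatergic-like cluster 8 differed most between single libraries. It made up 1.41%, 4.08%, 0.307%, 4.01%, 2.51% and 1.01% of the members of mutants 1 to 6. In controls 1 to 6 it made up 10.9%, 6.17%, 1.88%, 14.8%, 4.83% and 0.929%. Controls 1 and 4 were the highest of all libraries, controls 2 and 5 also lay above the highest mutant, and controls 3 and 6 were within the range of the mutants. The means were 2.22% ± 1.58 and 6.60% ± 5.38 (exact permutation p = 0.0779, adjusted p = 0.295). Controls 1 and 4 also had the fewest members, 476 and 357, and no nucleus of cluster 10, which held 0.302% to 7.07% of the other controls and 1.46% to 4.09% of the mutants.

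With coarser clustering (a resolution of 0.2 in place of 0.5, 15 clusters) 1 cluster passed the threshold. It joined all nuclei of the clusters 7 and 14 and nearly all of the clusters 1, 2 and 3 to parts of others, 5157 nuclei in all, and made up 67.5% to 76.8% of the members in mutants and 56.3% to 67.2% in controls, without overlap. The means were 70.8% ± 3.24 and 62.0% ± 4.36 (exact permutation p = 0.00216, the smallest the design can give, adjusted p = 0.0325). Counted over the members outside cluster 8 the means were 70.8% and 66.0% (exact permutation p = 0.0152). There the groups overlapped, at 68.5% to 76.6% in mutants and 60.8% to 70.0% in controls. With controls 1 and 4 left out the means were 70.8% and 64.2% (exact permutation p = 0.00476). Neither p was adjusted.

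**Figure D4:**
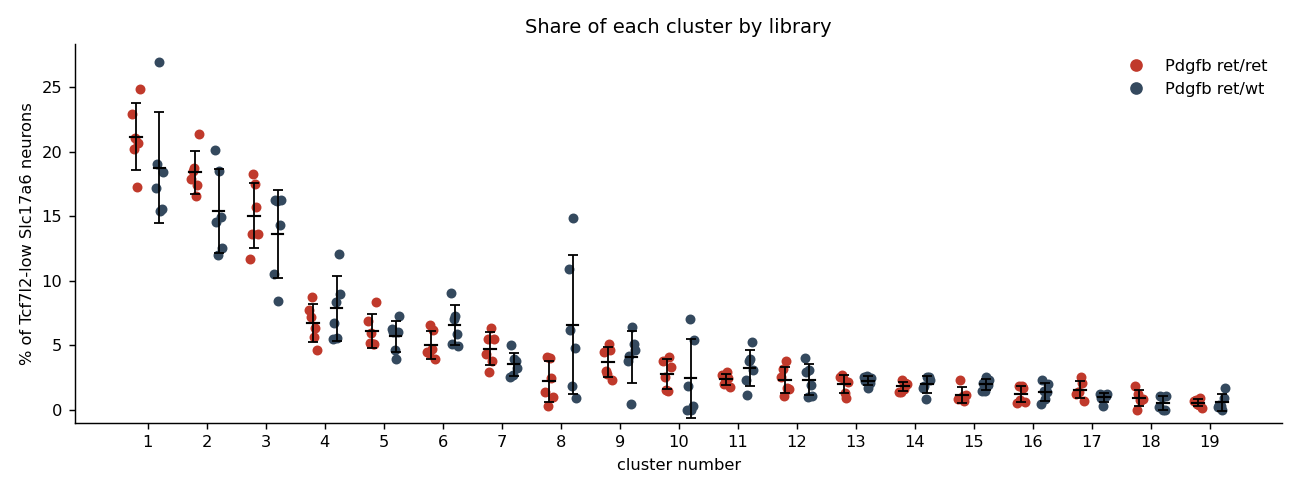
Each point is 1 deep brain library, and its height is the percent of that library's Tcf7l2-low Slc17a6 neurons in the cluster on the horizontal axis, in red for Pdgfb ret/ret and dark blue for Pdgfb ret/wt mice, with the mean and SD in black. Both genotypes overlap in every cluster, and in cluster 8 control libraries 1 and 4 lie at 10.9% and 14.8%, above all others.

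Shares of nuclei with a UMI of a regional or peptide gene were compared for the 63 of 123 listed genes found in at least 1% of thinned members. None passed an adjusted p of 0.05 (exact permutation test, 0% called, smallest adjusted p = 0.409), and 7 (11.1%) had an unadjusted p under 0.05. Of these, Neurod6 was found in 0.760% of thinned members in mutants and 2.90% in controls, Neurod2 in 0.762% and 1.35% and Mef2c in 14.7% and 19.2%, genes that were concentrated in cluster 8. Others were Cck (9.52% and 13.3%), Pcsk2 (66.8% and 70.1%) and Nfia (17.4% and 15.4%). The regional factors Sim1 (7.24% ± 0.786 and 7.55% ± 3.37), Nkx2-1 (3.19% and 3.29%) and Lmx1a (3.85% and 4.64%) had intervals that spanned 0.

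Gene levels were compared between genotypes on the counts summed per library. No gene of 14738 passed an adjusted p of 0.05 in edgeR's quasi-likelihood test (0% called), and the smallest adjusted p was 0.250. At an unadjusted p under 0.05 there were 750 genes (5.09%), 356 of them higher (2.42%) and 394 lower (2.67%) in mutants. The median log2 fold change was -0.00. DESeq2 called 6 genes, 2 higher and 4 lower. By the labels each mutant has a control of the same age to the day, with mice 5 and 6 crossed, although nothing says that they were littermates. With a block by this age edgeR called 4 genes and with a block by replicate number 6, among them Prlr and Gm28175 in both and Robo3 with the number. Precision was high for genes at 20 CPM or more, since the 95% interval of the log2 fold change lay within 1 of 0 for 8094 of 8108 such genes (99.8%) and within 0.5 of 0 for 7986 (98.5%). The mouse is the replicate here, and each library came from another mouse.

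The genes with the smallest p values are described although they did not pass. Among those lower in mutants was Robo3 (chromosome 9, 37415669 to 37433246, minus strand, GRCm38), at 3.19 to 6.04 CPM in mutants and 6.41 to 12.5 CPM in controls. The groups did not overlap, as in 25 genes that were lower (0.17% of those tested) and 15 that were higher (0.102%). The mean was 4.81 ± 1.11 CPM against 9.83 ± 2.68 CPM (SD, n = 6 each), a log2 fold change of -1.01 ± 0.20 (SE; edgeR, adjusted p = 0.250), and DESeq2 gave an adjusted p of 0.0206. With the block by age its adjusted p was 0.120 and with the block by number 0.0470. Cluster 11 held 36.3% of the Robo3 UMIs. This cluster was at 2.39% ± 0.429 of members in mutants and 3.25% ± 1.42 in controls.

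Cdc25b, a phosphatase of the cell cycle (chromosome 2, 131186949 to 131198497, plus strand), was at 12.5 ± 1.93 CPM in mutants and 17.8 ± 0.894 CPM in controls, with a log2 fold change of -0.50 ± 0.10 (edgeR, adjusted p = 0.250; DESeq2, adjusted p = 0.0352). The non-coding RNA Pantr1 was at 25.1 ± 2.19 CPM and 32.1 ± 1.48 CPM. Neither gene's libraries overlapped between the genotypes. Dkk3, a secreted protein of the Dickkopf family, was at 32.7 ± 3.90 CPM and 50.9 ± 12.5 CPM with a log2 fold change of -0.61 ± 0.13, and the non-coding Gm28175 at 11.8 ± 2.58 CPM and 19.9 ± 4.12 CPM (-0.71 ± 0.15). Both had their highest levels in controls 1 and 4, and DESeq2 gave both an adjusted p of 0.0323. For Gm28175 the adjusted p was 0.0187 with the block by age and 0.0219 with the block by number. The other 5 lower genes of the rule were Igfbp7 (-0.74), Arc (-0.75), Mier2 (-0.35), Th (-0.79) and Mlip (-0.99).

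Part of the lower genes sat in cluster 8, whose mean share was lower in mutants without passing the test. This cluster held 42.2% of the Mlip UMIs, 21.3% of Gm28175, 19.6% of Arc and 16.9% of Dkk3. Without its nuclei the log2 fold change of Mlip was -0.01, of Neurod6 -0.19 (from -1.66), of Mef2c -0.08 (from -0.62), of Dkk3 -0.19, of Gm28175 -0.30 and of Arc -0.40 (from -0.75). Cdc25b went to -0.33 (from -0.50) and Pantr1, with 10.6% of its UMIs in the cluster, to -0.20 (from -0.35). Robo3 (-0.80), Prlr (0.36) and Enox2 (0.31) were closer to their values with all members. Among Mlip, Neurod6 and Mef2c, Neurod6 stayed farthest from 0 once the cluster was left out.

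Among genes higher in mutants, Prlr, the prolactin receptor (chromosome 15, 10177238 to 10349180, plus strand), was at 72.8 to 104 CPM in mutants and 53.3 to 72.4 CPM in controls. The groups did not overlap, by a narrow margin, and mutant 2 was the highest. The means were 83.4 ± 10.7 CPM and 62.8 ± 6.87 CPM, a log2 fold change of 0.41 ± 0.08 (edgeR, adjusted p = 0.250; DESeq2, adjusted p = 0.0323). Its adjusted p was 0.0220 with the block by age and 0.0433 with the block by number. The clusters 2 and 7 held 32.0% and 12.1% of the Prlr UMIs, and their mean shares were the higher ones in mutants, as given above. Their part in the Prlr level was not tested. Enox2, a cell surface oxidase (chromosome X, 49009707 to 49288259, minus strand), was at 55.7 to 61.0 CPM and 40.8 to 52.3 CPM, with means of 58.2 ± 2.12 CPM and 46.8 ± 4.44 CPM and a log2 fold change of 0.32 ± 0.07 (edgeR, adjusted p = 0.250; DESeq2, adjusted p = 0.0323). Control 6, the male, had the highest Enox2 level of the controls.

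Several of the remaining higher genes are also expressed by glia. Aqp4, the water channel of astrocytes, was at 7.68 ± 1.25 CPM in mutants and 4.62 ± 1.07 CPM in controls (log2 fold change 0.74 ± 0.17; edgeR, adjusted p = 0.364), and Slc6a11, a GABA transporter of astrocytes, at 31.3 ± 4.18 CPM and 23.5 ± 4.19 CPM (0.41 ± 0.11). The astrocyte-led cluster 17 held 37.5% and 24.2% of their UMIs, and was at 1.57% ± 0.651 of members in mutants and 0.983% ± 0.361 in controls. Without the nuclei of the clusters led by glial or vascular genes the log2 fold changes were 0.78 for Aqp4 and 0.38 for Slc6a11. Of 10 astrocyte markers 7 had a positive log2 fold change, these 2 with an unadjusted p under 0.05, and the most abundant one, Slc1a2, was at 110 ± 30.9 CPM and 131 ± 40.5 CPM. The markers summed to 170 to 295 CPM in mutant and 138 to 299 CPM in control libraries. The others were Adk (0.23), Phactr2 (0.25), Sox2ot (0.47), Zfp951 (0.61), March3 (0.25) and Mrap2, an accessory protein of the melanocortin receptor (0.22).

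**Figure D5:**
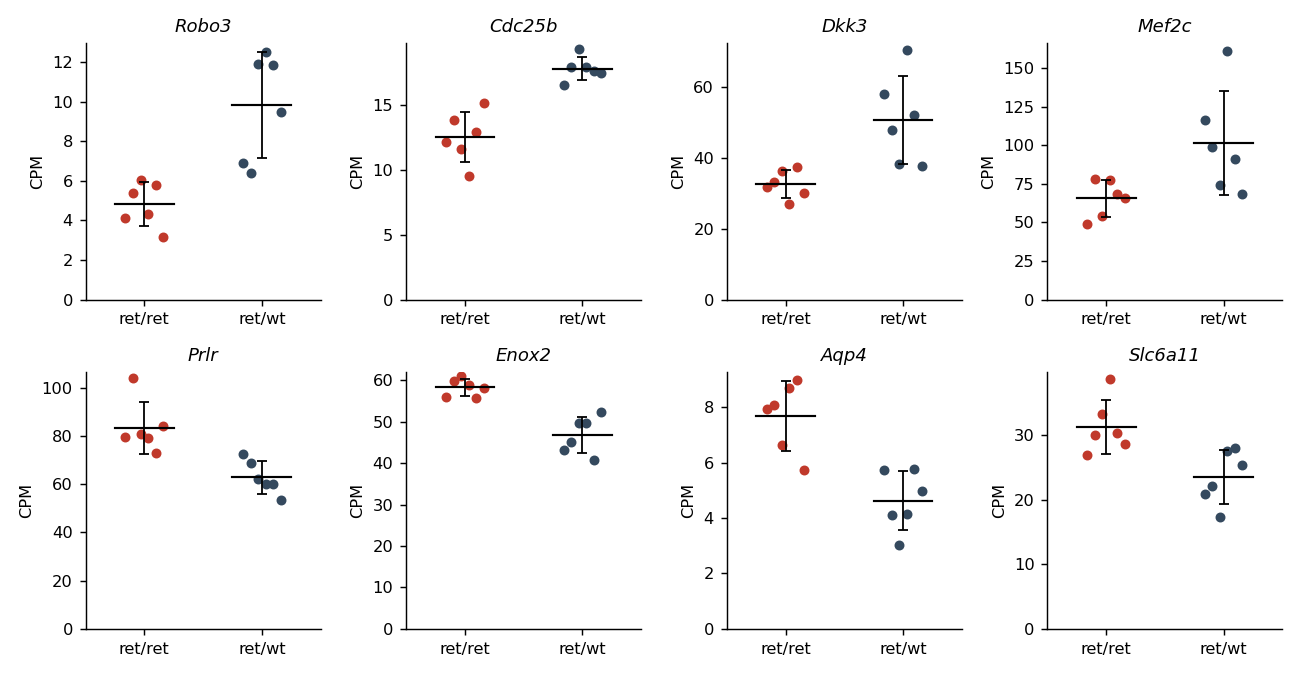
Levels of 8 genes in the summed counts of Tcf7l2-low Slc17a6 neurons, in CPM, for 6 Pdgfb ret/ret and 6 Pdgfb ret/wt libraries (points), with the mean and SD in black. Robo3 and Cdc25b were lower and Prlr and Enox2 higher in every mutant library, without passing an adjusted p of 0.05 in edgeR, and Mef2c was highest in control libraries 1 and 4 (117 and 161 CPM).

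Gene groups of neuronal function were set against the 5.09% of all genes with an unadjusted p under 0.05 and their median of -0.00. The lists here and below were chosen with earlier results of these data known, so their shares are a description and not a test. No gene of any list passed the adjusted threshold in the fit without a block. Neurod6, a telencephalic factor, passed with the block by number (edgeR, adjusted p = 0.0248) and with the block by age (edgeR, adjusted p = 0.0187). Of 45 genes of synapses and adhesion, 4 had an unadjusted p under 0.05 and 44 had a 95% interval within 0.5 of 0, with Ptprd at 4449 ± 332 CPM in mutants and 4470 ± 665 CPM in controls. Of 25 glutamate receptor genes 2 had such a p, Grik4 (0.14) and Grm3 (-0.27), and 24 had an interval within 0.5, among them Grm7 at 1775 ± 184 CPM and 1825 ± 190.1 CPM. Of 20 GABA and glycine receptor genes 1 had such a p and 18 had an interval within 0.5, and of 39 channel genes 5 and 38, with Kcnd2 at 1727 ± 80.0 CPM and 1706 ± 169 CPM.

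Receptors for modulators had a larger share with a small p. Of 51 tested, 9 were higher and 1 lower at an unadjusted p under 0.05, with a median log2 fold change of 0.06. The higher ones were Mc3r (0.87), Drd3 (0.58), Npy2r (0.42), Calcr (0.33), Esr1 (0.31), Tacr1 (0.29), Oprk1 (0.25), Adra1a (0.23) and Cnr1 (0.14), and the lower one was Npy1r (-0.47). Esr1 was at 40.5 ± 7.14 CPM in mutants and 32.6 ± 5.47 CPM in controls (edgeR, adjusted p = 0.979), and mutants 3 to 5 were within the range of the controls. Cluster 2 held 62.3% of the Calcr and 31.7% of the Esr1 UMIs, and cluster 7 a further 11.1% of Esr1. The mean shares of both clusters were higher in mutants, and their part in these levels was not tested. Of 33 peptide and secreted genes Tac2 (0.67), Penk (0.45) and Sst (0.35) were higher and Vip (-1.36) was lower at this p. A large part of these transcripts lay in few nuclei, those with at least 10 UMIs of the gene. They held 48.2% of the Tac2 UMIs (32 nuclei), 44.6% of Penk (187), 44.9% of Sst (92) and 27.4% of Vip (3). Vip reached 65 UMIs in a nucleus. Penk was at 131 ± 31.7 CPM and 95.5 ± 13.9 CPM, with mutants 3 and 4 at 165 and 176 CPM above all controls and the other 4 at 119 CPM or less. Mutants 3 and 4 also had the highest mitochondrial share, a median of 0.0683% and 0.111% of the UMIs of a member against 0.0244% to 0.0457% in the other libraries. Over all members Penk was found in nearly the same share of nuclei as in oligodendrocytes, as given above. The part of both in the Penk level was not tested.

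Genes induced by neuronal activity had mostly negative log2 fold changes. Of 23 immediate early genes 6 were lower and none higher at an unadjusted p under 0.05, with a median log2 fold change of -0.16. They were Arc (7.02 ± 1.08 CPM against 11.9 ± 2.93 CPM), Egr3 (-0.80), Ier5 (-0.49), Dusp6 (-0.46), Dusp1 (-0.41) and Egr1 (35.5 ± 9.20 CPM against 46.7 ± 12.8 CPM). Fos (24.5 ± 6.78 CPM against 27.0 ± 7.84 CPM) and Junb (22.9 ± 5.95 CPM against 24.4 ± 2.76 CPM) overlapped widely. Control 3 had the lowest level of Arc, Egr1 and Fos among the controls. Without it Arc passed the threshold (log2 fold change -0.88; edgeR, adjusted p = 0.0464), whereas without the nuclei of cluster 8 its log2 fold change was -0.40.

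Among regional factors, those of cluster 8 had the most negative log2 fold changes. Of 8 telencephalic factors 4 had an unadjusted p under 0.05, among them Neurod6, Neurod2 and Mef2c, all 8 had a negative log2 fold change and the median was -0.53. Of 9 hypothalamic factors only Fezf1 (0.78) had such a p, Sim1 was at 39.9 ± 7.89 CPM in mutants and 40.2 ± 16.4 CPM in controls, and its highest levels were in controls 1 and 4. Of 6 subthalamic and mammillary factors 2 were lower at this p, among them Lmx1b (-0.34), and all 6 had a negative log2 fold change with a median of -0.26. Cluster 6, which holds much of Lmx1a and Lmx1b, also had the lower mean share in mutants. Of 9 midbrain factors 4 had a positive log2 fold change and the median was -0.06, with Meis1 (0.59) and Meis2 (0.29) higher at this p. No thalamic or habenular factor of 11 had such a p, among them Rora at 1361 ± 113 CPM and 1310 ± 111 CPM.

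Lists of stress and disease differed in how many of their genes had a small p. None of 21 genes of injury and the unfolded protein response had an unadjusted p under 0.05, with Hspa5 at 292 ± 38.6 CPM and 293 ± 34.6 CPM. Of 23 hypoxia and glycolysis genes Vegfa alone did (39.6 ± 4.95 CPM against 33.5 ± 4.40 CPM, log2 fold change 0.23), and 22 had an interval within 0.5 of 0. Of 14 genes of phosphate transport and brain calcification Pdgfd did (0.61), while the phosphate exporter Xpr1 (171 ± 8.30 CPM against 164 ± 17.4 CPM) and the phosphate importer Slc20a2 (70.9 ± 6.06 CPM against 68.2 ± 2.74 CPM) did not. In the interferon and antigen presentation list 5 of 13 genes (38.5%) had such a p. H2-K1 (4.59 ± 2.38 CPM against 2.11 ± 0.628 CPM), whose sequence is close to that of other H2 genes, Tap1 and Ifi27 were higher and Tap2 and Herc6 lower.

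Mitochondrial transcripts and markers of microglia are given here because they were higher in some mutant libraries. All 13 mitochondrially encoded genes had a positive log2 fold change with a median of 0.39 and none had an unadjusted p under 0.05. Their sum ran from 557 to 1815 CPM in mutants and from 517 to 937 CPM in controls, and mt-Co1 in mutant 4 was at 304 CPM against 96.5 to 211 CPM in the other mutants. The microglial genes C1qb (3.64 ± 1.02 CPM against 1.72 ± 0.283 CPM, log2 fold change 1.07; edgeR, adjusted p = 0.250) and C1qc (2.55 ± 0.540 CPM against 1.53 ± 0.550 CPM) were higher at an unadjusted p under 0.05. All 6 microglial markers tested had a positive log2 fold change, their sum was 58.4 to 74.1 CPM in mutants and 54.2 to 61.7 CPM in controls, and Csf1r was 0 by the rule. The part of RNA from microglia in the levels of members was not tested. Of 4 GABAergic markers tested, 3 had a positive log2 fold change, with a median of 0.42 and a sum of 23.0 to 52.7 CPM in mutants and 21.9 to 32.3 CPM in controls. The rule limited Gad1 and Gad2 together to 1 UMI per nucleus, so this median and sum are a description and not a test. Gad2 was at 15.8 ± 4.76 CPM and 11.1 ± 2.38 CPM, and Gad1 at 7.77 ± 1.40 CPM and 8.36 ± 0.912 CPM. Dlx6os1, which the rule did not use, was at 2.60 ± 2.02 CPM and 1.26 ± 0.589 CPM, at an unadjusted p under 0.05.

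The effect of the genotype was then set against that in the thalamic-type nuclei of the same libraries. No gene of 15700 had an effect that differed between the classes at an adjusted p of 0.05 (edgeR's quasi-likelihood test on the interaction, 0% called, 603 or 3.84% at an unadjusted p under 0.05), and DESeq2 called none, with 239 at an unadjusted p under 0.05. The smallest p values of genes with a larger log2 fold change in the members were those of Syt13 (0.10 against -0.15), Npas4, an activity-induced factor (0.13 against -0.49), Pcp4l1 (0.19 against -0.25), Klf6 (0.01 against -0.42), Gm7644, which was too low to be tested in members alone, and Enox2 (0.32 against -0.03). In the other direction were Onecut1 (-0.25 against 0.75), Gpc4 (-0.48 against 0.76), Il31ra, Wars2, Frmd6 and Gcnt4. Prlr had a log2 fold change of 0.41 in members and 0.06 in thalamic-type nuclei, a difference of 0.35 ± 0.10 (SE; unadjusted p = 0.00184 in edgeR's fit, no call after adjustment).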

How the data were processed

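Nuclei from frozen deep brain and cortex were sequenced by the authors with the 5′ kit of 10x Genomics. They counted UMIs for each gene and barcode, and the deposited counts were made with Cell Ranger 5.0.1 (mm10, reads demultiplexed with bcl2fastq 2.20.0.422, per the submitters' processing notes), without normalization. Gene positions came from GENCODE M21 (GRCm38), in which 32235 of 32288 genes were found by identifier. Members were chosen in Python 3.11.15 with pandas 2.3.3, numpy 2.4.6 and scipy 1.17.1 and clustered with scanpy 1.11.5 on counts scaled to 1000, with 2000 variable genes, 20 components, 20 neighbours and a resolution of 0.5. A cluster was led by the genes with the largest log2 ratio of CPM + 10 against the other members, and was named only from 3 or more markers over 2-fold higher. Scrublet called doublets, which were kept. Oligodendrocyte nuclei held at least 3 UMIs of Mog, Mag and Mobp together and none of Slc17a6, Gad1, Gad2, Slc17a7 or Csf1r. The thalamic type met the rule with at least 2 UMIs of Tcf7l2.

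Counts of the members were summed per library, and genes were tested with edgeR 4.0.16 in R 4.3.3 (filter on low counts, TMM factors, quasi-likelihood test, Benjamini-Hochberg adjustment at 0.05). The interaction with class was fitted on both classes with the mouse as a term. The fit without class was also run on counts simulated with its own means and dispersions, and the interaction was not simulated. For shares, a two-sided exact permutation test with 924 permutations was used, which also gave the intervals and whose smallest p is 0.00216. The groups are the genotypes in the labels, and the replicates are separate mice. Between genotypes, where fewer than 5 genes passed in a direction, the 10 with the smallest p and a mean of 5 CPM or more were named, beside the 2 most abundant members of each list, which are given singly or within the ranges of their list. For the interaction the 6 genes with the smallest p in each direction were named at any level, and Prlr beside them. Members of a list with an unadjusted p under 0.05 were named after their values were seen, also below 5 CPM. Xist, Tsix and genes of the Y chromosome were left out. A few further genes are not reported here. The members and the lists were chosen with earlier results of these data known.

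Alternatives were DESeq2 1.42.0, RLE factors, no filter on low counts, blocks by replicate number and by age, stricter limits on marker genes, removal of doublets and of clusters led by glial or vascular genes, resolutions of 0.2 and 1, and leaving out each mouse. Leaving out controls 1 and 4 together and the mice of each age alone were added after the data had been seen. So were the removal of cluster 8 and that of the clusters led by glial or vascular genes. Shares of nuclei carry counting error beside the spread between mice, and the depth of 3009 to 36495 UMIs per member limits what can be found in a single nucleus.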

Additional observations from a re-analysis of the deposited data

Results flagged for a closer look

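Of 122 groups of 6 libraries checked for a library far from the others of its genotype, 7 had one, and chance alone marks about 1 in 20. Tcf7l2-low Slc17a6 neurons made up 4.59% of the deep brain nuclei of mutant 4, against 6.24% in the next lowest mutant. Cluster 1, led by Syt2 and Npas1, held 27.0% of the members in control 3 and 19.1% in the next highest control. Cluster 15, led by Flt1 and Scml2, held 2.35% in mutant 2 against 1.16% in the next mutant, and the astrocyte-led cluster 17 held 0.289% in control 3 against 0.931% in the next control. Scg2 was found in 53.4% of thinned members of mutant 2, below the 57.7% of the next mutant, and Penk in 28.2% of those of mutant 4, above the 19.8% of the next. Prlr was at 104 CPM in mutant 2, against 83.9 CPM in the next mutant.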

How the results depend on the processing

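The difference in the share of Tcf7l2-low Slc17a6 neurons was 0.176 points and within the spread between libraries under every alternative. Its sign turned without control replicate 1 (-0.0203) and replicate 4 (-0.108), with both left out (-0.424) and in the mice of 5 months alone (-0.108), and it ran from -0.108 to 0.542 when each mouse was left out. The count of genes called between genotypes was 0 with RLE factors, no filter, the stricter limits, without doublets, without glial-led clusters, without cluster 8 and without controls 1 and 4. It was 6 with DESeq2, 1 in mice of 4 months alone (6530403H02Rik) and 0 to 1 when each mouse was left out, the 1 being Arc without control 3. For the interaction it was 15 with no filter on low counts. Of these, 2 had a larger and 13 a smaller log2 fold change in the members than in the thalamic type. Mef2c, Pdzrn3 and Bnc2 were among the 13. Clusters called numbered 1 at a resolution of 0.2 and 0 to 1 when each mouse was left out, the 1 being the astrocyte-led cluster 17 without mutant 6 (1.74% and 0.983%, adjusted p = 0.0411). No regional gene was called under any alternative. The cause of these changes was not tested.

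Same-numbered libraries of both genotypes deviated together with a correlation of -0.0364 to 0.324 over 8108 genes. Of 6 mutants 2 correlated best with their own number, so that the numbers are not taken to pair the mice. Pairs of the same age had -0.0364 to 0.276. Mutants 5 and 6 correlated with controls 5 and 6 at 0.229 to 0.324, whereas mutants 1 to 4 had negative values with these controls. With the replicate block by number 6 genes were called (1 higher, Prlr, and 5 lower, with Gm28175, Neurod6, Pdzrn3 and Robo3 among them) and with the block by age 4 (Prlr higher, Gm28175 and Neurod6 among the lower). The share had p = 0.6875 with the block (exact sign-flip permutation test), and no cluster and no regional gene was called, where the smallest p that 6 pairs allow is 0.03125. Genes below 20 CPM, small clusters and peptides at the level of RNA outside the nuclei are the ones for which depth limits what can be said.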

Other observations

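Genes of prohormone processing were unevenly spread over the clusters, which is given as a description. Pcsk1 was found in 86.0% of thinned nuclei of the Corin cluster 12, 34.2% of the subthalamic or supramammillary-like cluster 6 and 34.1% of the peptide cluster 2, whereas Pcsk2 was found in 87.5% of the telencephalic glutamatergic-like cluster 8, 86.8% of cluster 4 and 80.2% of cluster 12. Cluster 12 also held 22.2% of the UMIs of Tbr1, a factor of cortical and amygdalar neurons, in 172 of 7691 nuclei. Adcyap1 was found in 49.3% and Bdnf in 31.8% of thinned nuclei of cluster 9, which had the largest share of nuclei with Sim1. Serotonin and acetylcholine receptors were unevenly placed as well, with Htr2c at 1365 CPM in cluster 6 and 1048 CPM in cluster 13, and Chrm3 at 1326 CPM in cluster 13.

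Nuclei with at least 10 UMIs of Penk numbered 118 among the 3997 members of mutants and 69 among the 3694 of controls. Per library they numbered 13 to 34 and 7 to 16. Those of Sst numbered 54 and 38, those of Trh 55 and 34 and those of Nts 19 and 7. Bdnf went the other way, with 5 and 14 nuclei. The counts per library overlapped between the genotypes for all 5 genes, also for Sst (4 to 14 and 3 to 12), Trh (4 to 16 and 3 to 9), Nts (0 to 5 and 0 to 2) and Bdnf (0 to 2 and 0 to 5), and these differences were not tested. Of the other genes counted, Tac1 numbered 64 and 46, Avp 10 and 10, Cartpt 12 and 14 and Pcsk1 52 and 70, also without a test.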
